A study of Mus musculus with 9 samples.

Results

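Matrix metalloproteases (Mmps), Adamts proteases, Adamts-like proteins and tissue inhibitors of metalloproteases (Timps) were followed across 3 adjacent zones of the mouse stomach: corpus, squamocolumnar junction and forestomach. Members were all probe sets, each a group of probes for one transcript, with a single gene symbol that starts with Mmp, Adamts, Adamtsl or Timp followed by a number. The rule found 78 probe sets of 45101 on the array. They represent 42 genes of 18193, namely 18 Mmp, 15 Adamts, 5 Adamtsl and 4 Timp genes. A probe set was tested if its signal exceeded the 40th percentile of its own array (29.0 to 36.5) on at least 3 of the 9 arrays. By this filter 54 member probe sets and 32 member genes were measured, and 10 genes were not.

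All mice were healthy, untreated C57Bl/6 females aged 3 months. From each of 9 stomachs, narrow strips of glandular corpus, of non-glandular forestomach and of the boundary between them, 600 to 800 µm wide, were cut side by side. Strips of 3 mice were pooled per RNA sample, which gave 3 pools (series 1, 2 and 3) in each zone and 9 Affymetrix arrays, so the zones of a series come from the same mice. Strips hold every cell type of the dissected wall, and in such samples fewer cells of a type and less RNA per cell cannot be told apart.

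Mmps are zinc-dependent endopeptidases that cut collagens, elastin, laminins and other proteins of the extracellular matrix. Most are secreted as inactive precursors, and some are tethered to the cell membrane. Adamts proteases are secreted relatives with thrombospondin repeats, which cut proteoglycans such as versican and aggrecan or trim procollagens. Adamts-like proteins share those repeats but have no protease domain and bind to fibrillin-rich matrix. Timps bind the active site of these enzymes and block it. In a mucosa this system belongs to the turnover of the connective tissue under the epithelium and to wound repair.

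The arrays carried the epithelia their labels name. Of 11 measured squamous markers, which include the basal keratins Krt5 and Krt14, 11 were higher in forestomach than in corpus and 11 were higher in the junction than in corpus. Of 11 measured gastric gland markers, 8 were lower in forestomach than in corpus, and 0 passed between junction and corpus (limma, adjusted p; also 0 at an unadjusted p under 0.05). The summed gland marker signal of the forestomach was 1348 in series 1, 25130.1 in series 2 and 33624 in series 3, against 109993 to 162016 in corpus, so the forestomach pools differed in gland marker signal. In series 3 the largest values were those of Gkn2 (11877), Gkn1 (10404) and Tff1 (6219), which did not pass. Atp4a was at 645 and Pgc at 277.5 there, against corpus means of 11934 and 12560, so the sum is no measure of the share of gland RNA. Fibroblast markers summed to between 17372 and 19857 in corpus, 23695 and 25252 in the junction, and 32673 and 40954 in forestomach. Smooth muscle markers summed to between 21560.4 and 31458 in corpus, 24529 and 29302 in the junction, and 57214 and 62697 in forestomach.

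Between forestomach and corpus, 16 of 32 measured members changed at an adjusted p under 0.05, of which 13 were higher and 3 lower in forestomach. The tests were limma's moderated tests on log2(signal + 9.8), adjusted by Benjamini-Hochberg over 13637 genes. The members called make up 50.0% of those measured, against 59.9% of all genes tested. By direction, 40.6% of members were higher, against 30.0% of all genes, and 9.38% were lower, against 29.9%. The median log2 difference was 0.40 over the members and -0.01 over all genes. The counts include members that the filter admitted mainly through the zones where they are high. Mmp3 exceeded the filter level on forestomach arrays alone, Adamtsl5 on no corpus array, and Timp4 and Mmp13 on no forestomach array. The filter favours these calls, so the shares are given as a description. Without the forestomach array of series 2, 12 members were higher and 4 lower, and without that of series 3, 15 were higher and 3 lower. Without all arrays of series 2, 10 were higher and 1 lower.

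Between junction and corpus 5 members were higher and 0 lower in limma, against 7 higher and 3 lower at an unadjusted p under 0.05. The 5 are 15.6% of the members, against 25.0% of all genes called, with 13.2% of all genes higher and 11.8% lower. The median log2 difference was -0.03 over the members and -0.05 over all genes. The 5 include Mmp12, which exceeded the filter level on 3 junction arrays and 1 corpus array, so the filter favours that call. The count was 1 without all arrays of series 2, 2 without the junction array of series 2 or of series 3, and 3 without the corpus array of series 2, the forestomach array of series 3, or all arrays of series 1 or of series 3.

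Between junction and forestomach 5 members were higher and 13 lower, or 56.3% of the members against 44.6% of all genes. Members lower in the junction made up 40.6%, against 23.1% of all genes, and members higher 15.6%, against 21.5%. The median log2 difference was -0.28 over the members and -0.04 over all genes. These counts also include calls that the filter favours. Mmp10, Mmp12, Mmp13 and Timp4 exceeded its level on no forestomach array, and Mmp3 and Adamts3 on no junction array. Without the forestomach array of series 2 these counts were 3 higher and 9 lower, and without all arrays of series 2 they were 2 higher and 8 lower. The 3 comparisons share arrays, so a high or low level in forestomach enters both of its comparisons.

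**Figure D1:**
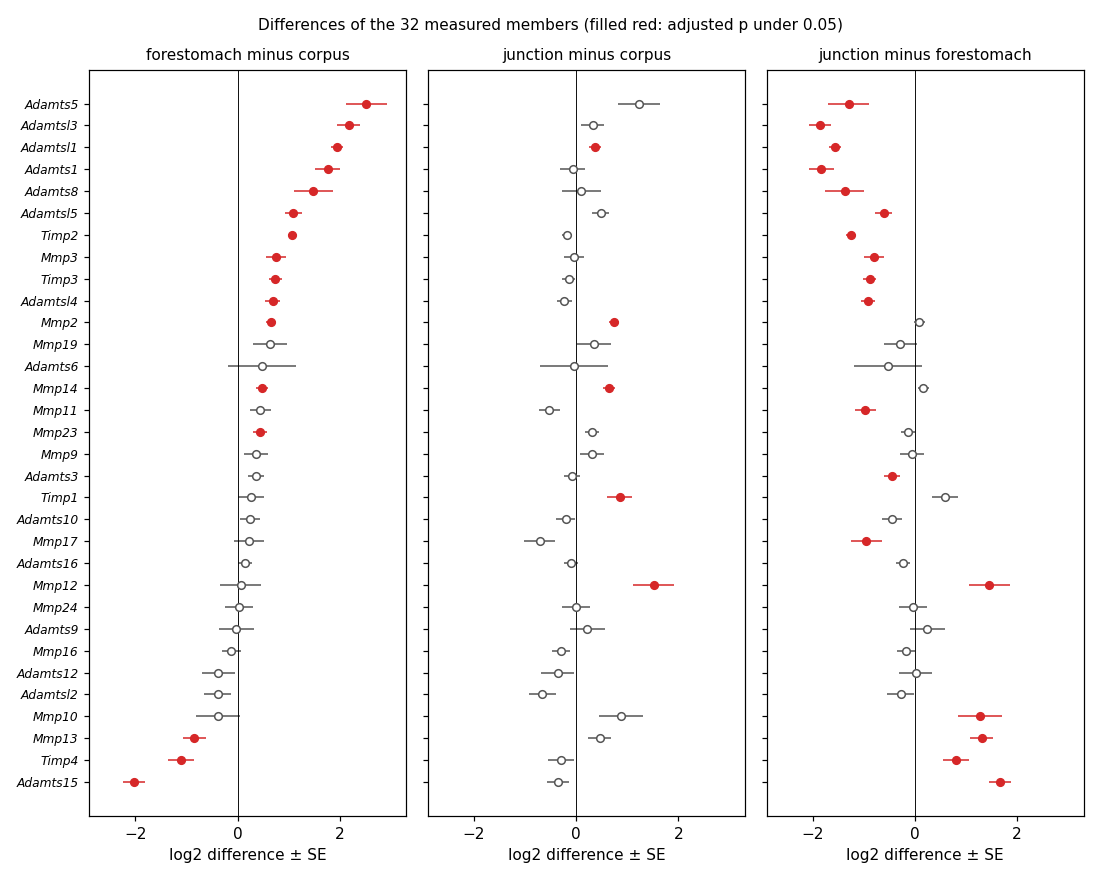
Log2 difference ± SE of each of the 32 measured members in the 3 comparisons (3 arrays per zone), sorted by forestomach minus corpus, with filled red points where limma's adjusted p was under 0.05. In the left column 16 points are filled, from Adamts5 at 2.52 to Adamts15 at -2.03, in the middle column 5 and in the right column 18.

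Among the inhibitors, Timp2 and Timp3 were higher in forestomach than in both other zones, Timp4 was lower there, and Timp1 was higher in the junction than in corpus. Timp2, which also helps membrane-bound Mmp14 to activate Mmp2, had signals of 1301, 1273 and 1232 in corpus, 1142, 1117 and 1097 in the junction and 2688, 2435 and 2926 in forestomach, in the order of series 1, 2 and 3. The forestomach arrays lay far above all others, and the junction arrays lay slightly below those of corpus on this probe set. The forestomach was 2.10-fold above corpus (log2 difference 1.07 ± 0.09 SE, adjusted p = 1.36e-05), and the junction 2.38-fold below forestomach (-1.25 ± 0.09, adjusted p = 1.50e-05). Junction and corpus differed by -0.18 ± 0.09, which did not pass (adjusted p = 0.185). Of 5 measured Timp2 probe sets, 5 were higher in forestomach than in corpus, by 0.70 to 1.70, and 5 were lower in the junction than in forestomach. Between junction and corpus the other 4 had the opposite sign (0.18 to 0.28), and none of the 5 passed in limma at the adjusted threshold.

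Timp3 stays bound to the matrix and also inhibits Adamts proteases. Its signals were 698, 894 and 853 in corpus, 738, 797 and 661 in the junction and 1199.6, 1440.3 and 1454 in forestomach. Corpus and junction overlapped and the forestomach stood above both. The forestomach was 1.67-fold above corpus (0.74 ± 0.13, adjusted p = 0.00123) and the junction 1.85-fold below forestomach (-0.89 ± 0.13, adjusted p = 7.47e-04). Of 4 measured Timp3 probe sets, 3 passed in each of these comparisons, and the other was at -0.19 between forestomach and corpus.

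Timp4, the inhibitor with the most restricted expression of the family, went the other way. Its signals were 55.9, 76.6 and 35.0 in corpus, 58.5, 33.9 and 35.6 in the junction and 16.2, 18.8 and 23.9 in forestomach. All 3 forestomach arrays were below the filter level and below every other array, while corpus and junction overlapped. The forestomach was 2.17-fold below corpus (-1.11 ± 0.26, adjusted p = 0.00513; 0.0542 without series 2), and 2 of 2 probe sets were lower. A second Timp4 probe set was also lower in the junction than in corpus (-0.60), where the representative one did not pass (-0.30, adjusted p = 0.427). The junction was 1.76-fold above forestomach (0.81 ± 0.26, adjusted p = 0.0309). That call was lost with series as a block (0.0524), without forestomach series 1 (0.0927) or 2 (0.0734), without junction series 1 (0.102), and without all arrays of series 1 (0.264) or 2 (0.0640). Of 4 measured adipocyte markers, 2 were lower in forestomach than in corpus, with sums of 2234 to 2666 in corpus, 1411 to 1650 in the junction and 1029.5 to 1790.1 in forestomach and with Lep below the filter. Their part in the Timp4 result was not tested.

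Timp1, an inhibitor induced in inflammation and wound repair, had signals of 44.4, 55.7 and 46.5 in corpus, 85.1, 108.6 and 93.6 in the junction and 35.5, 89.7 and 66.4 in forestomach. The junction arrays were above those of corpus, and the forestomach arrays were spread over the range of both. The junction was 1.80-fold above corpus (0.85 ± 0.25, adjusted p = 0.0409). The call was lost in 11 of 22 alternatives: with a pseudocount of 1 (0.0528), without a filter (0.0653), without corpus series 1 (0.113), 2 (0.0648) or 3 (0.0987), without forestomach series 3 (0.0560), without junction series 1 (0.0596), 2 (0.120) or 3 (0.0966), and without all arrays of series 2 (0.105) or 3 (0.229). Against forestomach the junction differed by 0.59 ± 0.25, with an adjusted p of 0.0930, or 0.0398 with series as a block.

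**Figure D2:**
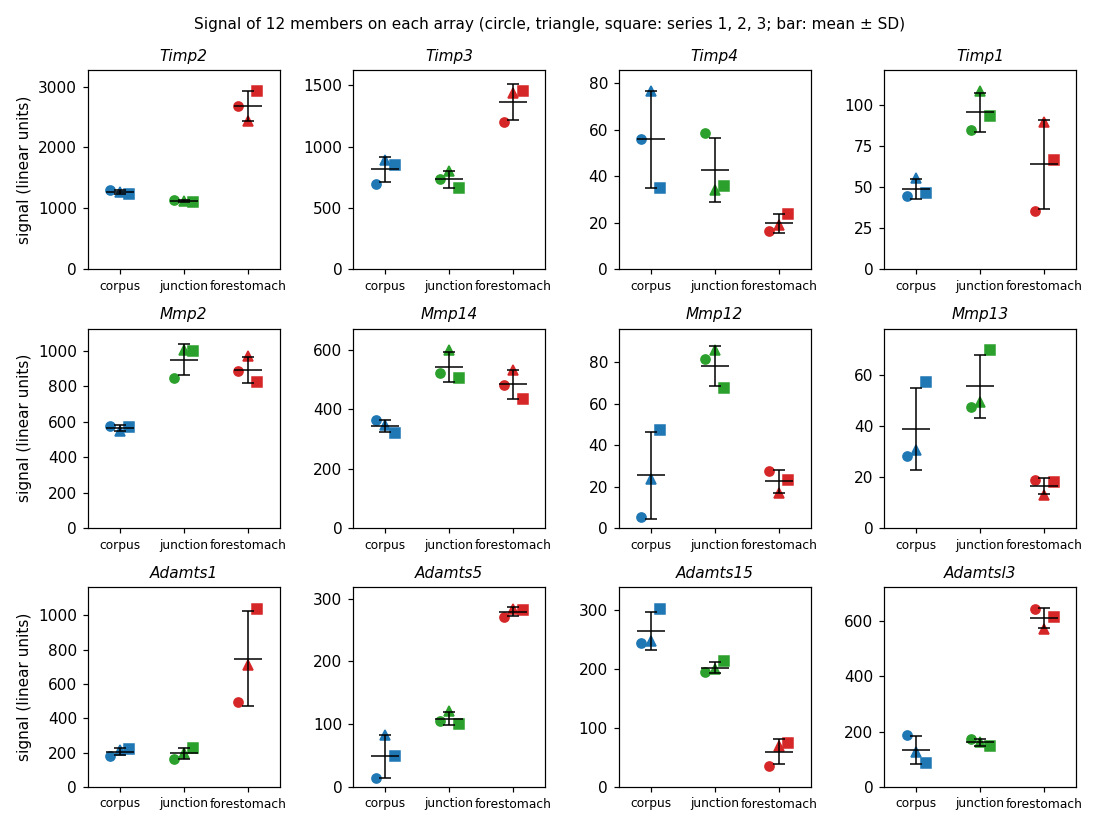
Signal in linear units on each of the 9 arrays for 12 members, with series 1, 2 and 3 as circles, triangles and squares and bars for the mean ± SD of 3 arrays; each vertical axis starts at 0 and has its own scale. Timp2, Timp3, Adamts1, Adamts5 and Adamtsl3 are highest in forestomach, Timp4, Mmp13 and Adamts15 lowest there, and Mmp2 and Mmp14 are lowest in corpus.

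Mmp2 and Mmp14 were higher in both zones that carry squamous epithelium than in corpus. Mmp2, a gelatinase that cuts basement membrane collagen, had signals of 577, 548 and 571 in corpus, 850.3, 1007 and 999 in the junction and 888, 973 and 826 in forestomach. Every junction and forestomach array was above every corpus array, and junction and forestomach overlapped. The junction was 1.67-fold above corpus (0.74 ± 0.10, adjusted p = 0.00125) and the forestomach 1.57-fold above corpus (0.65 ± 0.10, adjusted p = 6.00e-04). Junction and forestomach differed by 0.09 ± 0.10 (adjusted p = 0.529). Mmp2 was the 1 call between junction and corpus that held under every alternative run, and 2 of 2 probe sets were higher in forestomach than in corpus.

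Mmp14, the membrane-bound collagenase that activates Mmp2, had signals of 363, 347 and 320.1 in corpus, 523, 599 and 504 in the junction and 482, 532 and 435 in forestomach. As for Mmp2, both other zones lay above corpus and overlapped with each other. The junction was 1.56-fold above corpus (0.64 ± 0.11, adjusted p = 0.00387; 0.0530 without series 2) and the forestomach 1.39-fold above corpus (0.48 ± 0.11, adjusted p = 0.00523). Each of these calls rested on 1 of 3 measured probe sets. The other 2 were at 0.56 and 1.06 between junction and corpus and did not pass. Between forestomach and corpus the mean of the 3 gave a log2 difference of 0.30 with an adjusted p of 0.199. Fibroblast markers rose in 10 of 12 cases between corpus and forestomach and in 3 of 12 between corpus and junction, with the sums given above, and macrophage markers rose in 7 of 9 in both comparisons. Their part in the Mmp2 and Mmp14 results was not tested.

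Of the 3 comparisons, the other membrane-anchored Mmps passed in at most 1 each by their representative probe sets. Mmp23, a type II membrane protease, was 1.35-fold higher in forestomach than in corpus (0.44 ± 0.14, adjusted p = 0.0233), with signals of 76.2, 87.3 and 107.5 in corpus, 105, 115 and 119 in the junction and 124, 143 and 109 in forestomach, and 2 of 2 probe sets passed. That call was lost without corpus series 1 (0.0818) or 2 (0.0614), forestomach series 1 (0.0544) or 2 (0.0787), or all arrays of series 1 (0.163) or 2 (0.195). Mmp17, anchored by a lipid tail, was 1.93-fold lower in the junction than in forestomach (-0.95 ± 0.30, adjusted p = 0.0297). The Mmp17 call was lost with series as a block (0.0636) and without forestomach series 2 (0.0793) or 3 (0.0972), junction series 3 (0.0905), or all arrays of series 2 (0.0841) or 3 (0.197). Mmp16 and Mmp24 passed in none of the comparisons by their representative probe set, and 1 of 2 Mmp16 probe sets was lower in the junction than in forestomach (-1.28). The junction signals of that probe set, 6.8, 6.4 and 8.5, were all below the filter level, so the filter favours its call.

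Several soluble Mmps lie side by side on mouse chromosome 9. In gene order they are Mmp13, Mmp12, Mmp1b, Mmp3, Mmp1a, Mmp10 and Mmp8, with 0 protein-coding genes between neighbours in the GRCm38.p6 gene table, then 1 other gene, Mmp20 and Mmp7. Of these 9, 4 passed the filter, namely Mmp13, Mmp12, Mmp3 and Mmp10. Between junction and forestomach 3 of the 4 were called higher in the junction and Mmp3 lower. These dim genes were admitted to the tests mainly by the zone in which they are high: Mmp3 exceeded the filter level on 3 forestomach arrays and no others, Mmp12 and Mmp13 on 3 junction arrays and 1 corpus array, and Mmp10 on 2 junction arrays and 1 corpus array. Calls among them are therefore favoured by the filter, and their number is no support for a pattern, with 44.6% of all genes called in that comparison. The stretches of 250 bases before their starts are shown because all 4 hold a match to the AP-1 motif, which Fos and Jun proteins bind, while their differences had opposite signs. Sequences are from RefSeq on GRCm38.p6, read on the strand of the gene, with matches to AP-1 (TGANTCA) and the TATA box (TATAAA) in capitals: Mmp13 at chr9:7272264-7272513, Mmp12 at chr9:7347124-7347373 (the second of 2 listed starts, the first of which has no match), Mmp3 at chr9:7445572-7445821 and Mmp10 at chr9:7502092-7502341, all on the plus strand.
Mmp13: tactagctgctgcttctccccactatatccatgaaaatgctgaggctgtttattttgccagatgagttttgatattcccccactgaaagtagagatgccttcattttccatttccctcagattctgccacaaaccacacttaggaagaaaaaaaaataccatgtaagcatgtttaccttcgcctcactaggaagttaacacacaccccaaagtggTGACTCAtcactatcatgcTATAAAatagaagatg
Mmp12: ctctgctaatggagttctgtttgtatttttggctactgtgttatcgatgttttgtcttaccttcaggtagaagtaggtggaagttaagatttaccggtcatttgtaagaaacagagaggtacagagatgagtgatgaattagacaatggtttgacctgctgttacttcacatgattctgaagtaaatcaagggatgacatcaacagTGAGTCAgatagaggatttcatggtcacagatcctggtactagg
Mmp3: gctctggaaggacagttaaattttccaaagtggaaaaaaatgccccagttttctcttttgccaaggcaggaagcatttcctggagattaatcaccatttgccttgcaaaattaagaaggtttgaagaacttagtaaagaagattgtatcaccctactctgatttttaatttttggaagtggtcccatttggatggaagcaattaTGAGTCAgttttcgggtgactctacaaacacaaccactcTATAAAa
Mmp10: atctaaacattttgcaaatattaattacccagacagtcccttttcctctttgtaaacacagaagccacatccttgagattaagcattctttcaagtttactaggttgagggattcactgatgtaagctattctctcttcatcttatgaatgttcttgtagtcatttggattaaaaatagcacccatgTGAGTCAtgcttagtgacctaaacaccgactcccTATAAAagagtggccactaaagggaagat

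The AP-1 match begins 35 bases before the listed start in Mmp13, 44 in Mmp12, 46 in Mmp3 and 63 in Mmp10. Of 42 members, 27 had a promoter in the table. Searched on both strands, TGANTCA was found in 8 of these 27, and all 8 were among the 9 genes of the chromosome 9 cluster (Mmp8 had no match), against 7.82% of 27025 genes in the table. TATAAA was found in 7 of the 9 cluster genes and in 2 of the 18 others, against 14.3% of all genes. The GC box GGGCGG showed the reverse, with 0 of the 9 cluster genes and 15 of the 18 others, against 35.4% of all genes. No match of one motif overlapped a match of another in these members. A match is a description of the letters and not evidence of binding. Timp2 (chr11:118355412-118355661, minus strand) and Mmp14 (chr14:54431348-54431597, plus strand) are shown as windows with GC boxes, in capitals, and no AP-1 match.
Timp2: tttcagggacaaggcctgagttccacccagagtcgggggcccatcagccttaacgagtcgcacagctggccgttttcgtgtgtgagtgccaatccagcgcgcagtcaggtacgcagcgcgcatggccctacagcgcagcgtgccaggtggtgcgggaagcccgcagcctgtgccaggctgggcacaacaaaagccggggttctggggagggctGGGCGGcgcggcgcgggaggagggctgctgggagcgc
Mmp14: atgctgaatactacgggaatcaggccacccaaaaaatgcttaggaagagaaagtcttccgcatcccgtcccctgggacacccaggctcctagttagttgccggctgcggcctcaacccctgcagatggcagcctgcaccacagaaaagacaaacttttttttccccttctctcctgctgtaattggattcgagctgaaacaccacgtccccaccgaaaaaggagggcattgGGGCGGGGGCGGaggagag

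Mmp12, the macrophage elastase, had signals of 5.4, 23.5 and 47.1 in corpus, 81.5, 86.0 and 67.4 in the junction and 27.6, 16.7 and 23.3 in forestomach. The junction arrays were above all 6 others, and the forestomach arrays were all below the filter level. The junction was 2.86-fold above corpus (1.52 ± 0.40, adjusted p = 0.0260) and 2.74-fold above forestomach (1.45 ± 0.40, adjusted p = 0.0176). Against corpus the call was lost with a pseudocount of 1 (0.0532), without corpus series 2 (0.0563), without junction series 1 (0.0600), 2 (0.0777) or 3 (0.0579), without all arrays of series 1 (0.0769) or 2 (0.172), and with the 6 arrays of both zones alone (0.0538). Against forestomach it was lost with a pseudocount of 1 (0.0520), without forestomach series 2 (0.0566), without junction series 1 (0.0507) or 2 (0.0525), and without all arrays of series 2 (0.163). Of 9 measured macrophage markers, 7 were higher in the junction than in corpus and 7 in forestomach than in corpus, while 0 were higher and 1 lower in the junction than in forestomach (0 and 3 at an unadjusted p under 0.05). Their signals summed to between 3559 and 4205 in corpus, 6319 and 6528 in the junction, and 5836 and 8125 in forestomach. Their part in the Mmp12 result was not tested.

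Mmp13, the main interstitial collagenase of the mouse, had signals of 28.3, 30.7 and 57.3 in corpus, 47.5, 49.3 and 69.8 in the junction and 18.7, 12.8 and 17.9 in forestomach. The forestomach arrays were below the filter level and below all others, and in each series the junction was above corpus, though the zones overlapped. The junction was 2.47-fold above forestomach (1.31 ± 0.23, adjusted p = 0.00187), and none of the 21 alternatives that tested the gene ended this call. Mmp13 exceeded the filter level on no forestomach array, so the filter favours the call and its stability is no support. The forestomach was 1.80-fold below corpus (-0.85 ± 0.23, adjusted p = 0.0115), which was lost with quantile normalization (0.0544) and without series 2 (0.0682). Junction and corpus differed by 0.46 ± 0.23 (adjusted p = 0.177).

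The stromelysins Mmp3 and Mmp10, which cut many matrix proteins and activate other Mmps, differed in opposite directions. Mmp3 had signals of 30.5, 20.8 and 16.5 in corpus, 25.0, 26.2 and 13.9 in the junction and 49.0, 43.1 and 40.1 in forestomach. All 6 corpus and junction arrays were below the filter level, so Mmp3 entered the tests through the forestomach alone and its p-values are given as a description. Its forestomach arrays were above the other 6, 1.69-fold over corpus (0.75 ± 0.20, adjusted p = 0.0106; 0.0808 without series 2) and 1.74-fold over the junction (-0.80 ± 0.20, adjusted p = 0.0115; 0.0586 without series 2). Mmp10 had signals of 7.8, 14.0 and 34.8 in corpus, 22.9, 68.3 and 36.1 in the junction and 9.2, 4.7 and 20.3 in forestomach. Its junction arrays were above those of forestomach (1.27 ± 0.43, adjusted p = 0.0397), and both zones overlapped with corpus. The Mmp10 difference was 1.88 with a pseudocount of 1, and its call was lost without a filter (0.0599), with quantile normalization (0.0750), without corpus series 2 (0.0541), forestomach series 1 (0.0959) or 2 (0.121), junction series 2 (0.127) or 3 (0.0747), and all arrays of series 1 (0.0662) or 2 (0.324).

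Mmp11, a furin-activated secreted Mmp, was 1.96-fold lower in the junction than in forestomach (-0.97 ± 0.20, adjusted p = 0.00463). Its signals were 56.4, 45.1 and 35.4 in corpus, 38.9, 22.9 and 24.6 in the junction and 78.6, 53.9 and 63.4 in forestomach. Junction and forestomach did not overlap. Mmp11 did not pass against corpus in the unpaired fit, and with series as a block it was higher in forestomach (0.44, adjusted p = 0.0157) and lower in the junction (-0.53, adjusted p = 0.0215). Mmp9, the neutrophil and macrophage gelatinase, passed in no comparison by its representative probe set (0.37 ± 0.24 between forestomach and corpus, adjusted p = 0.210), nor did Mmp19. A second Mmp9 probe set had signals of 12.5, 4.3 and 4.2 in corpus, 34.5, 27.0 and 19.1 in the junction and 54.9, 51.2 and 34.3 in forestomach, and was higher than corpus in forestomach (1.77) and junction (1.14). That probe set exceeded the filter level on 4 arrays, none of them from corpus, so the filter favours both calls. Of 7 measured neutrophil markers, 3 were higher in forestomach and 3 in the junction than in corpus, with Elane and Camp below the filter. Their sums were 176 to 287 in corpus, 2461 to 4227 in the junction and 1080.3 to 1553 in forestomach. In the junction S100a9 and Ltf carried most of the sum (means of 1507 and 1471), while Mpo was at -1.24 in the junction and -1.02 in forestomach relative to corpus and, like Ngp and Csf3r, did not pass. Their part in the Mmp9 values was not tested.

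Among the Adamts proteases, Adamts1, Adamts5 and Adamts8, all cleaving large proteoglycans, were higher in forestomach, and Adamts15 was lower. Adamts1 had signals of 179.9, 213 and 222 in corpus, 163, 196 and 227 in the junction and 492, 713 and 1039 in forestomach. The forestomach arrays were spread over a wide range but all lay above the others. The forestomach was 3.39-fold above corpus (1.76 ± 0.25, adjusted p = 3.03e-04) and the junction 3.56-fold below forestomach (-1.83 ± 0.25, adjusted p = 4.54e-04), while junction and corpus differed by -0.07 ± 0.25 (adjusted p = 0.855).

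Adamts5, the main aggrecanase of mouse cartilage and the neighbour of Adamts1 on chromosome 16 with 0 protein-coding genes between them, had signals of 14.0, 82.8 and 48.6 in corpus, 104, 120.7 and 101 in the junction and 272, 284 and 283 in forestomach. On this probe set the 3 zones did not overlap, and the junction lay between its neighbours in every series. The forestomach was 5.73-fold above corpus (2.52 ± 0.40, adjusted p = 6.72e-04), and the mean of 3 probe sets gave a log2 difference of 1.51. The junction was 2.45-fold below forestomach (-1.29 ± 0.40, adjusted p = 0.0293), and 2 of 3 probe sets passed in each of these comparisons. The junction call was lost with a pseudocount of 1 (0.0699), without forestomach series 1 (0.0647), 2 (0.0681) or 3 (0.0699), without junction series 1 (0.0748), 2 (0.0560) or 3 (0.0733), and without all arrays of series 2 (0.0554) or 3 (0.174). Between junction and corpus Adamts5 had a log2 difference of 1.23 ± 0.40 (adjusted p = 0.0565), and the other 2 probe sets had 0.25 and -0.06, so the size of this difference rests on 1 probe set.

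Adamts8 and Adamts15 are neighbours on chromosome 9, with 0 protein-coding genes between them, and differed in opposite directions. Adamts8 had signals of 40, 44.3 and 26.9 in corpus, 61.3, 60.5 and 14.5 in the junction and 106, 123 and 129 in forestomach. Its forestomach arrays were above all others, 2.78-fold over corpus (1.48 ± 0.38, adjusted p = 0.00911; 0.0503 without series 2). The junction was 2.60-fold below forestomach (-1.38 ± 0.38, adjusted p = 0.0175), a call lost without forestomach series 3 (0.0521) and without all arrays of series 1 (0.0507) or 2 (0.0626). Adamts15, a proteoglycanase that cuts versican, had signals of 244, 248 and 303 in corpus, 195, 199 and 214 in the junction and 35.8, 69.3 and 74.3 in forestomach. Its forestomach arrays were far below the other 6, and the junction was below corpus in every series. The forestomach was 4.07-fold below corpus (-2.03 ± 0.22, adjusted p = 5.68e-05) and the junction 3.16-fold above forestomach (1.66 ± 0.22, adjusted p = 3.87e-04). Junction and corpus differed by -0.36 ± 0.22 (adjusted p = 0.254). The lowest Adamts15 value was in the forestomach array of series 1, which also had the lowest gland marker sum, and the part of gland RNA in the result was not tested.

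Adamts9, a versican-cleaving protease, could not be given a direction. Its representative probe set had signals of 91.7, 114 and 98.6 in corpus, 108, 129 and 122 in the junction and 51.0, 183 and 99.9 in forestomach, with no call (-0.03 ± 0.34 between forestomach and corpus, adjusted p = 0.952). A second probe set was higher in forestomach than in corpus (1.01) and another was lower (-0.70). The second was also lower in the junction than in forestomach (-0.97), and the other was lower in the junction than in corpus (-1.06). The representative probe set was at 0.25 and 0.22 in these 2 comparisons and did not pass. The procollagen N-proteinase Adamts3 was 1.36-fold lower in the junction than in forestomach (-0.45 ± 0.16, adjusted p = 0.0485). It exceeded the filter level on 3 forestomach arrays, 1 corpus array and no junction array, so the filter favours this call. That call was lost in 13 of 21 alternatives. It went without the corpus array of series 3 (0.0644), the forestomach array of series 2 (0.144) or 3 (0.0746), the junction array of series 1 (0.120), 2 (0.0845) or 3 (0.0943), or all arrays of series 1 (0.0944), 2 (0.0865) or 3 (0.166), and the other 4 gave 0.0588 to 0.189. Between forestomach and corpus Adamts3 did not pass (0.36, adjusted p = 0.0782; 0.0249 with series as a block). Adamts10, which binds fibrillin, did not pass between junction and forestomach (-0.45, adjusted p = 0.0883; 0.0254 with series as a block). Adamts6, Adamts12 and Adamts16 passed in none of the comparisons.

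**Figure D3:**
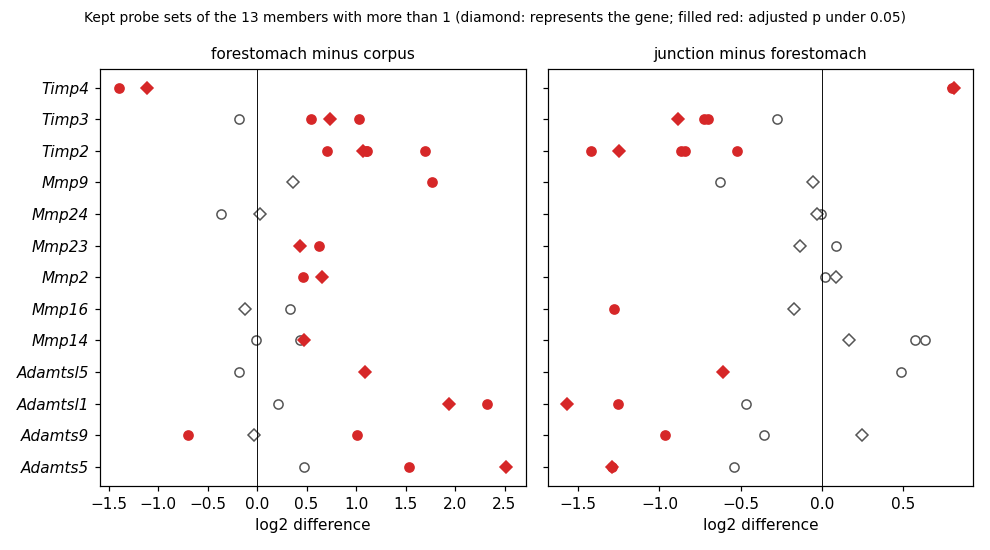
Log2 differences of every measured probe set of the 13 members with more than 1, each point 1 probe set, with diamonds for the probe set that represents the gene and red filling for an adjusted p under 0.05. The 5 Timp2 probe sets lie on 1 side in both panels, and those of Adamts9 lie on both sides of 0.

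Of the 5 Adamts-like genes, 4 were higher in forestomach than in both corpus and junction. Among all genes, 30.0% were higher in forestomach than in corpus and 23.1% lower in the junction than in forestomach. The 4 include Adamtsl5, whose calls over corpus and junction were both lost with the mean of its probe sets. Adamtsl2, a microfibril-binding regulator of growth factor signalling, passed in no comparison. Adamtsl1 had signals of 62.4, 72.6 and 64.6 in corpus, 75.2, 95.7 and 97.2 in the junction and 298, 265 and 287 in forestomach. The zones did not overlap, and the junction lay much nearer to corpus. The forestomach was 3.84-fold above corpus (1.94 ± 0.12, adjusted p = 1.53e-06), and the junction was 2.97-fold below forestomach (-1.57 ± 0.12, adjusted p = 1.55e-05). The junction was 1.29-fold above corpus (0.37 ± 0.12, adjusted p = 0.0461), a call lost in 16 of 22 alternatives. It went with series as a block (0.0666), without the corpus array of series 1 (0.134), 2 (0.0560) or 3 (0.109), the forestomach array of series 1 (0.0613), 2 (0.0558) or 3 (0.0644), the junction array of series 2 (0.134) or 3 (0.142), or all arrays of series 1 (0.0695), 2 (0.167) or 3 (0.300), and the other 4 gave 0.0558 to 0.0793. Of 3 measured Adamtsl1 probe sets, 2 passed between forestomach and corpus and the other was at 0.21. The passing probe set that does not represent the gene exceeded the filter level on the 3 forestomach arrays alone. Its signals were 53.8, 56.0 and 42.4 there and 3.1, 1.9 and 1.8 in corpus, so the filter favours its call.

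Adamtsl3 had signals of 189, 124 and 87.2 in corpus, 174, 161 and 149 in the junction and 645, 572 and 615 in forestomach. Corpus and junction overlapped and the forestomach stood apart, 4.52-fold above corpus (2.18 ± 0.22, adjusted p = 4.32e-05), with the junction 3.62-fold below forestomach (-1.86 ± 0.22, adjusted p = 2.40e-04). Adamtsl4, a fibrillin-binding protein of the lens suspension, had signals of 249.7, 328 and 229.9 in corpus, 204, 249.6 and 223 in the junction and 403, 476 and 426 in forestomach. Its forestomach arrays were above all others, with log2 differences of 0.69 ± 0.14 over corpus (adjusted p = 0.00327) and 0.92 over the junction (-0.92 ± 0.14 as junction minus forestomach, adjusted p = 0.00106). Adamtsl5 had signals of 28.3, 26.0 and 29.5 in corpus, 33.3, 55.3 and 42.0 in the junction and 75.3, 79.7 and 58.3 in forestomach. Its zones did not overlap, and the forestomach was 2.13-fold above corpus (1.09 ± 0.16, adjusted p = 4.48e-04). No corpus array exceeded the filter level, so Adamtsl5 entered the tests through the other zones and this p-value is given as a description. The mean of both Adamtsl5 probe sets gave 0.45 (adjusted p = 0.0649), since the second was at -0.18. The junction was lower than forestomach for Adamtsl5 (-0.61 ± 0.16, adjusted p = 0.0150), which was lost for the mean of probe sets (0.812), with limma's trend and robust options (0.0510), without forestomach series 2 (0.0509), and without all arrays of series 1 (0.156) or 3 (0.0517).

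Smooth muscle, fibroblast and some mesothelial and nerve markers moved with the members that were high in forestomach. Of 10 measured smooth muscle markers, 10 were higher in forestomach than in corpus, 0 differed between junction and corpus (1 higher at an unadjusted p under 0.05 in limma) and 10 were lower in the junction than in forestomach. For 12 fibroblast markers these counts were 10 higher, 3 higher and 9 lower. Nerve and glia markers were higher in 4 of 6 cases between forestomach and corpus and lower in 4 of 6 between junction and forestomach, with sums of 415 to 440.4 in corpus, 290.5 to 358 in the junction and 550.2 to 622 in forestomach. Of 5 mesothelial markers, 3 (Upk3b at 2.41, Msln and Lrrn4) were higher in forestomach than in corpus and lower in the junction than in forestomach, while Krt19, which glandular epithelium also makes, went the other way. Krt19 carried the mesothelial sums of 7116 to 8219 in corpus, 8130.4 to 8826 in the junction and 584 to 1248 in forestomach. Of 8 endothelial markers, 1 was higher and 3 were lower in forestomach than in corpus. Of 9 macrophage markers, 7 were also higher in forestomach than in corpus, and 1 was lower in the junction than in forestomach. Among all genes, 30.0% were higher and 29.9% lower in forestomach than in corpus, and 23.1% were lower in the junction than in forestomach. The part of these cell types in the results for Timp2, Timp3 and the Adamts and Adamtsl genes was not tested.

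The level of the junction between its neighbours was computed within each series as the junction's distance from corpus as a percentage of the forestomach's distance from corpus, on linear signals. Over all 4084 genes higher in forestomach for which it was defined, the median was 30.5%, with quartiles of 6.87% and 53.9%. Over the 13 members higher in forestomach it was 10.7%. The matrix proteases Mmp14 and Mmp2 had means above 100%, at 144% (134% to 160.4% over 3 series) and 121% (87.9% to 168%). Adamts5 was at 25.4% (18.8% to 35.1%), Adamtsl1 at 10.7% (5.4% to 14.7%) and Adamts1 at -2.8% (-5.4% to 0.6%). The representative Timp2 probe set was at -10.9% (-13.4% to -7.9%), while the other 4 were at 9.5% to 29.3%, so its sign depended on the probe set. For Adamts5 another probe set was at 8.8% (-6.4% to 20.3%), and the remaining one varied from -240.0% to 58.0%. The other Mmp14 probe sets varied from -90.9% to 1017% over the series, and the second Mmp2 probe set was at 113% (72.4% to 175%). Members were not tested against the other genes for this measure. Among the 3 members lower in forestomach, Adamts15 was at 29.9% (23.3% to 39.0%), against a median of 43.1% over 4082 genes. Mmp13 and Mmp23 gave no stable position, with -200% to -31.7% and 49.8% to 665% over the series, as both are ratios to small differences between corpus and forestomach.

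**Figure D4:**
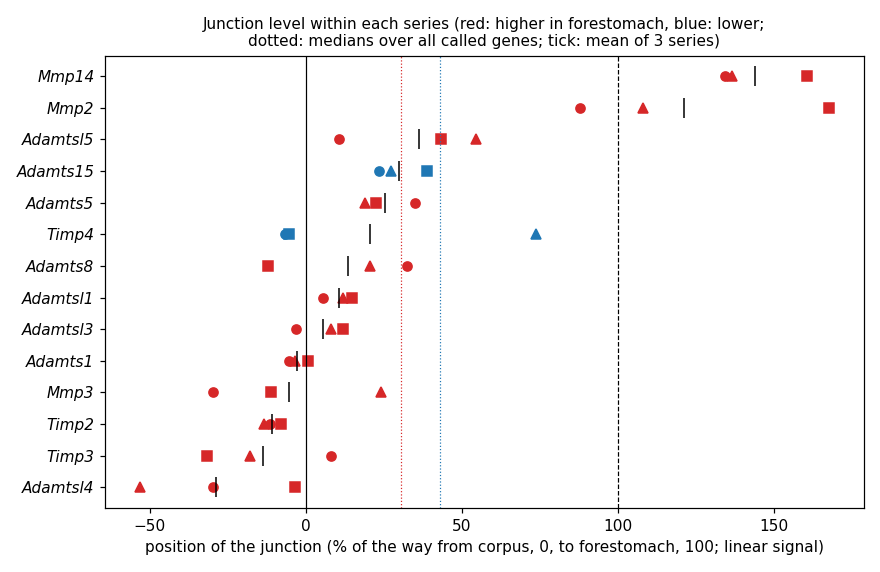
Position of the junction between corpus (0%, solid line) and forestomach (100%, dashed line) for the representative probe sets of 14 members, with series 1, 2 and 3 as circles, triangles and squares and a tick for the mean; Mmp13 and Mmp23 are left out because their positions vary too widely. Mmp14 and Mmp2 have means of 144% and 121%, and the other 12 have means below 40%, beside medians over all called genes of 30.5% (higher in forestomach) and 43.1% (lower).

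No member lay above or below both neighbours in the junction once p-values were adjusted. The test in limma asked each gene to pass against corpus and against forestomach in one direction, and called 0 of 32 members above both and 0 below both, against 0.198% and 0.0147% of all genes. At an unadjusted p under 0.05 there were 2 members above both, Mmp12 (adjusted p = 0.356) and Timp1 (adjusted p = 0.943), and 2 below both, Mmp11 (adjusted p = 0.758) and Mmp17 (adjusted p = 0.875). The count was also 0 under every alternative run.

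The 10 unmeasured members were Mmp1a, Mmp1b, Mmp7, Mmp8, Mmp20, Adamts4, Adamts7, Adamts18, Adamts19 and Adamts20. Their 13 probe sets had signals of 0.5 to 49.4, and values this dim do not show absence of the transcript. They include the neutrophil collagenase Mmp8, the epithelial matrilysin Mmp7 and the tooth enamel protease Mmp20. Without a filter Adamts20 was higher (1.10, adjusted p = 0.00375) and Adamts4 lower (-0.60, adjusted p = 0.0390) in forestomach than in corpus.

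Other genes of this system, from lists that were not tested as groups, are to be read beside the shares of all genes called, which are 30.0% higher and 29.9% lower between forestomach and corpus, 13.2% and 11.8% between junction and corpus, and 21.5% and 23.1% between junction and forestomach. Of 16 measured genes of proteolytic activation and cell-surface control, 10 were higher and 3 lower in forestomach than in corpus, 6 higher and 1 lower in the junction than in corpus, and 3 higher and 8 lower in the junction than in forestomach. Reck, a membrane-anchored inhibitor of Mmps, had signals of 297, 268 and 214 in corpus, 438, 385 and 391 in the junction and 1080.5, 1050.3 and 1089 in forestomach, a log2 difference of 2.02 ± 0.12 (adjusted p = 1.80e-06). Furin, the convertase that activates membrane-type Mmps and Adamts precursors, ran the other way, with signals of 2823, 3053 and 2595 in corpus, 1571, 1177 and 1198 in the junction and 337, 334 and 291 in forestomach (-3.10 ± 0.13, adjusted p = 2.77e-07). Its zones did not overlap. Serpinb2, an inhibitor of urokinase also made by squamous cells, rose on the log2 scale by 6.46 in forestomach and 4.98 in the junction over corpus, and the hyaluronan receptor Cd44 by 3.59 and 3.07. The junction was above forestomach by 1.99 for Furin and 1.59 for the urokinase receptor gene Plaur, on the same scale.

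Of 16 other measured metalloproteases, 4 were higher and 6 lower in forestomach than in corpus, 4 higher and 3 lower in the junction than in corpus, and 4 higher and 3 lower in the junction than in forestomach. Adamdec1, a secreted protease of gut macrophages and stroma, was lower in forestomach than in corpus on the log2 scale (-4.23 ± 0.18) and 4.33 higher in the junction than in forestomach. Bmp1, the procollagen C-proteinase, was higher by a log2 difference of 1.92, Adam8 by 1.27 and Adam33 by 1.02 in forestomach. Over corpus the junction was higher by 1.23 for Bmp1 and 1.09 for Adam8, and it was below forestomach for Adam33 (-1.37).

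Of 21 measured matrix substrates, 15 were higher and 1 lower in forestomach than in corpus, 9 higher and 1 lower in the junction than in corpus, and 3 higher and 11 lower in the junction than in forestomach. Those with the largest log2 differences between forestomach and corpus were the hemidesmosome collagen Col17a1 (6.06), the collagen I chain Col1a1 (1.73), tenascin C (Tnc, 1.64) and fibronectin (Fn1, 1.61). Col17a1 and Tnc also rose in the junction over corpus, by 5.59 and 1.17. Versican (Vcan), a substrate of several Adamts proteases, was higher in the junction than in forestomach (log2 difference 1.49), and elastin (Eln) was lower (-1.30). Col2a1 and Fbn2 were below the filter. This list shares Col17a1 with the squamous markers, Col1a1, Col1a2, Col3a1 and Dcn with the fibroblast markers, and Vwf with the endothelial markers. Its counts therefore partly repeat the marker counts.

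Of 11 measured transcription factors and cytokines known to induce Mmps, 4 were higher and 4 lower in forestomach than in corpus, 3 higher and 0 lower in the junction than in corpus (1 lower at an unadjusted p under 0.05 in limma), and 4 higher and 2 lower in the junction than in forestomach. The cytokine gene Il1a rose by 2.91 (log2) and the factor Ets2 by 0.76 in forestomach, and Fos (-1.55) and Tgfb1 (-0.89) fell. The Fos signals in forestomach were 1073.8, 311.8 and 338.9 in series 1, 2 and 3, so its differences varied between pools. Among forestomach arrays, that of series 1 was also the highest for Jun, Fosl1, Fosl2 and Junb, but not for Jund. In the junction Il1a (1.36) and the AP-1 factor Fosl2 (0.45) were higher than in corpus, and Fos was higher (1.48) and Il1a lower (-1.56) than in forestomach. Fosb, Etv4, Il6, Tnf and Osm were below the filter.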

How the data were processed

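RNA of 9 pools, 3 per zone, was hybridised to 1 array each, and precision is limited by that number of arrays. The authors deposited 1 linear intensity per probe set; MAS5 is the tool named in the submitters' processing notes, and which version and settings were used is not given in the sources used here. Every array's trimmed mean (2% off each end) was 200.0. MAS5 subtracts mismatch signals, which leaves dim values noisy.

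Names came from the platform annotation, which gave 1 symbol to 34958 of 45101 probe sets, several to 932 and none to 9211. From the filtered probe sets, 29511 in all, the brightest of each gene by mean log2 stood for it, giving 13637 genes. The pseudocount of 9.8 is the middle value of the 9 arrays' 20th percentiles, and a fold on this scale understates the change of dim genes. Zone means over 9 arrays were fitted with limma 3.58.1 in R 4.3.3 (6 residual and 2.56 prior degrees of freedom, two-sided), without further normalization, and checked on simulated data. Figures were drawn with matplotlib 3.10.9 in Python 3.11.15.

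The series number pairs arrays, since zones of a series come from the same mice. Deviations of same-numbered arrays correlated at -0.03 to 0.12 over 9 pairs (mean 0.03), 1 of them over 0.1. Unpaired zone means were fitted as the chief design, with the series block as an alternative. Other alternatives changed the pseudocount, filter, normalization, probe set rule, variance model, arrays fitted, and left out each array or series.

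Members and gene lists were chosen with earlier results of these data known. Values on every array are given for the 8 largest called differences per comparison, for all Timps and for members whose probe sets oppose each other, and for some others that were chosen after their values were seen. For each pathway list, up to 4 genes are named between forestomach and corpus and up to 2 per junction comparison. Promoters were taken from RefSeq on GRCm38.p6.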

Additional observations from a re-analysis of the deposited data

How the results depend on the processing

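Of 39 calls of members, 19 passed under each of the alternatives run in which the gene was tested, 20 were lost in at least 1, and 0 reversed. The 19 were 9 between forestomach and corpus, 1 between junction and corpus (Mmp2) and 9 between junction and forestomach. They include the Mmp13 call between junction and forestomach, which the filter favours. Between junction and corpus the count of 5 became 3 with a pseudocount of 1, 3 without a filter, 8 with the mean of probe sets and 8 with all probe sets tested, and 1 to 6 when an array or series was left out, lowest without series 2. Between junction and forestomach the count of 18 became 10 with a filter at the 60th percentile, where fewer members were tested, and 10 to 18 when an array or series was left out, lowest without series 2. Between forestomach and corpus the 16 calls ranged from 11 (without series 2) to 18. With the series pairing as a block the counts were 18, 5 and 18, and the calls it changed stand beside the results. Causes of these shifts were not tested. Among called members, Mmp3, Mmp10, Mmp12, Mmp13 and Adamts3 exceeded the filter level on only 3 or 4 of 9 arrays, and Timp4 and Adamtsl5 on 6. Signal near that level limits them, and their folds depend on the pseudocount. The filter favours calls of Timp4 in forestomach and of Adamtsl5 against corpus, as no array of those zones exceeded it for these genes.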
